A study of Mus musculus with 18 samples.

Results

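Semaphorins, plexins and neuropilins form a guidance system of ligands and receptors, and transcripts of its 31 mouse genes were followed here in sorted endothelial cells and in a breast cancer cell line. The members were every gene with the symbol of a class 3 to class 7 semaphorin, every plexin of the A, B, C and D classes, and both neuropilins, matched by Ensembl identifier in the endothelial table and by symbol in the table of cultured cells. They comprise 20 semaphorins, 9 plexins and 2 neuropilins, and all 31 were present in both tables, among 55401 endothelial identifiers and 22612 lines of the other table. A symbol pattern alone would also have taken the 3 antisense genes Plxna4os1, Plxna4os2 and Plxna4os3, which were left out.

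Semaphorins are proteins first known for turning growing axons aside, and the same signals shape blood and lymph vessels. Class 3 semaphorins are secreted, most of them bind a neuropilin that has no signalling domain of its own, and the neuropilin pairs with a class A plexin that carries the signal into the cell. SEMA3E differs in binding plexin D1 directly. Semaphorins of classes 4 to 6 span the membrane and mostly bind class B or class A plexins without a neuropilin, and SEMA7A is held by a lipid anchor. Plexins lower the activity of Rap and R-Ras GTPases and alter the cytoskeleton and integrin adhesion. NRP1 is a receptor of arterial and capillary endothelium that also binds VEGF-A, whereas NRP2 is best known from veins and lymphatics, where it binds VEGF-C. The study followed SEMA3C as a ligand released by tumour cells, and NRP2 with plexin A1 as its receptor on high endothelial cells.

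The 18 libraries form 6 groups of 3. Endothelial cells were sorted from female C57BL/6 mice as CD31-high and CD45-negative cells, and the antigen PNAd divided them into PNAd-negative blood vessel endothelial cells (BECs) and PNAd-positive high endothelial cells (HECs), which line the venules by which lymphocytes enter lymph nodes. The fat pad gave BEC normal, primary tumours of EO771 cells implanted there gave BEC tumour, lymph nodes gave HEC normal, and HEC tumour came from tissue labelled lymph node metastases. EO771 is a mouse breast cancer cell line, and the last groups are EO771 cells in culture given vehicle (EO771 vehicle) or 12-HETE (EO771 12-HETE), the lipid made by the enzyme ALOX12. BECs and HECs therefore differ in tissue of origin as well as in vessel type, the tissues were digested with different enzymes, and none of these can be told apart in a comparison of BECs with HECs. Fat pad and tumour also differed in digesting enzymes and time, whereas the methods give the same digestion for all lymph nodes. Tissue, digestion and tumour therefore cannot be told apart in BEC tumour against BEC normal, nor in a comparison of tumour changes between BECs and HECs. The study describes the experiments behind its heatmaps of these data as independent, while the labels do not tie libraries to mice or cultures, and the p-values measure the spread between these libraries.

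Total values were 56.4 to 79.4 M per endothelial library and 17.3 to 18.6 M per EO771 library. Low values of the endothelial table were multiples of about 3.77, so 3 fragments correspond to a value of about 11.3, and 1 unit is not 1 fragment. The marker Pecam1 was high in all 12 endothelial libraries, and Glycam1, which encodes a ligand of L-selectin made by HECs, was 573 to 592 CPM, the value scaled to library size, in HEC normal, 1078 to 1105 CPM in HEC tumour and 0 in all 6 BEC libraries. Other defining markers were uneven. Cldn5, of endothelial tight junctions, was 232 to 280 CPM in BEC normal but at most 2.01 CPM in the other 9 endothelial libraries, and Ccl21a was at 0 in HEC normal and HEC tumour. Chst4, the sulfotransferase that makes PNAd, was 291 and 297 CPM in HEC normal replicates 1 and 3 but 0.0596 CPM in replicate 2, and Fut7, a fucosyltransferase of the same ligands, was 1021 and 1011 CPM in HEC tumour replicates 1 and 2 but 221 CPM in replicate 3. Summed over 10 macrophage and myeloid markers, CPM was 1646 to 2271 in BEC tumour and 108 to 129 in BEC normal, against 485 to 509 in HEC normal and 356 to 374 in HEC tumour, where Cd68 made up nearly all of it. C1qa was at 0 in BEC normal, and none of the 10 was at 0 throughout BEC tumour. Summed over 10 fibroblast and pericyte markers, it was 850.5 to 862 in BEC normal and 97.0 to 129 in BEC tumour, against 33.5 to 34.9 in HEC normal and 18.8 to 20.4 in HEC tumour, with 1 of the 10 at 0 throughout each group but BEC tumour. Epithelial and tumour cell markers summed to 3.61 to 6.92 in BEC normal and 20.0 to 93.6 in BEC tumour. In HEC normal they summed to 27.9 to 31.2 and in HEC tumour to 31.2 to 34.1. Nearly all of the HEC sums was the single gene Krt19, at 26.4 to 28.8 CPM in HEC normal and 30.2 to 32.7 CPM in HEC tumour. Krt8 was 0.526, 2.67 and 33.2 CPM in BEC tumour replicates 1, 2 and 3 and at most 0.135 CPM in BEC normal. In HEC normal and HEC tumour Krt8 was at most 0.421 and 0.325 CPM.

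Sequences of 2 kinds are shown: the guides with which the study addressed Sema3c, since they place the ligand gene that the study followed, and the stretches just before the transcription start of 4 receptors and ligands, chosen after their values were seen, of which 1 pair was lower and the other higher with tumour in BECs. The guides matched transcripts of 1 gene, Sema3c, among 55450 genes searched. In transcript Sema3c-201 of the GRCm38 annotation, which has 18 exons, guide 1 lies on the minus strand in coding exon 3 and guide 2 on the plus strand in coding exon 6. They are given in the 5′ to 3′ direction, with the following 3 bases of the transcript, an NGG motif for Cas9, in capitals. None of the 18 libraries is labelled as edited.
Sema3c guide 1, chr5:17653729-17653748, minus strand: ggacagactaaagtactcagAGG
Sema3c guide 2, chr5:17670471-17670490, plus strand: tctaagtgtgaatctggcaaAGG

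The stretches before the start, from RefSeq on GRCm38.p6, cover Plxnd1 and Sema3g, which fell in BEC tumour, and Plxnb2 and Nrp2, which were higher there than in the other endothelial groups. They run up to 250 bases before the RefSeq start and were shortened where the reference annotation already places an exon. GC boxes (GGGCGG on either strand) are in capitals. Plxnd1 and Sema3g have 1 GC box each, and Plxnb2 and Nrp2 have 4 each, where 1 pair in Nrp2 overlaps.
Plxnd1, chr6:115995006-115995255, minus strand: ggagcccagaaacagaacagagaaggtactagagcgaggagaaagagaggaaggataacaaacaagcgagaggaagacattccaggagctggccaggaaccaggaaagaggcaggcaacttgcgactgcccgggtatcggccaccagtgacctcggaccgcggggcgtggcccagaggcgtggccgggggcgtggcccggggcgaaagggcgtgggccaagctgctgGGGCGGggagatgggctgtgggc
Sema3g, chr14:31217623-31217859, plus strand: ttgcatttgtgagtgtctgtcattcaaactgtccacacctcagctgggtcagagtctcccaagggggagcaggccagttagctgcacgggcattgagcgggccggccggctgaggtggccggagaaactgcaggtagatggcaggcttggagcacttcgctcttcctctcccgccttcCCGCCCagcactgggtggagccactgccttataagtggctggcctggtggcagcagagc
Plxnb2, chr15:89180789-89181038, minus strand: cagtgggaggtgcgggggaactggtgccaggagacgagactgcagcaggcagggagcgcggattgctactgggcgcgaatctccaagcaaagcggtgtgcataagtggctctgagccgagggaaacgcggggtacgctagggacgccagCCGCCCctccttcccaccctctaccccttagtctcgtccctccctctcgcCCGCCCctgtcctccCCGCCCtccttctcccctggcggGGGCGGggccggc
Nrp2, chr1:62703067-62703284, plus strand: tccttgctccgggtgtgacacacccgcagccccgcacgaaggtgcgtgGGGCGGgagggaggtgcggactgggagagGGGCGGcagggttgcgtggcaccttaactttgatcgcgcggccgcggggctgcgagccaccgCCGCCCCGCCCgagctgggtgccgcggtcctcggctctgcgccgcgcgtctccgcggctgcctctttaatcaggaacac
A GC box was present in 27 of the 37 windows of 250 bases before the listed starts of members, which cover 21 of the 26 members with a RefSeq entry, and in 32.7% of all 32851 such windows. The median GC content was 64% in the 37 windows of members and 52.4% in all windows. The core CCGGAA of sites for ETS factors was found in 4 of the 37 member windows, against 12% of all windows, the E-box CACGTG in 2 against 6.02%, and TATAAA in 0 against 12.4%, on either strand and with no overlap removed. Plxna1, Plxna4, Sema3b, Sema3f and Sema6a had no entry. These matches describe letters only.

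**Figure D1:**
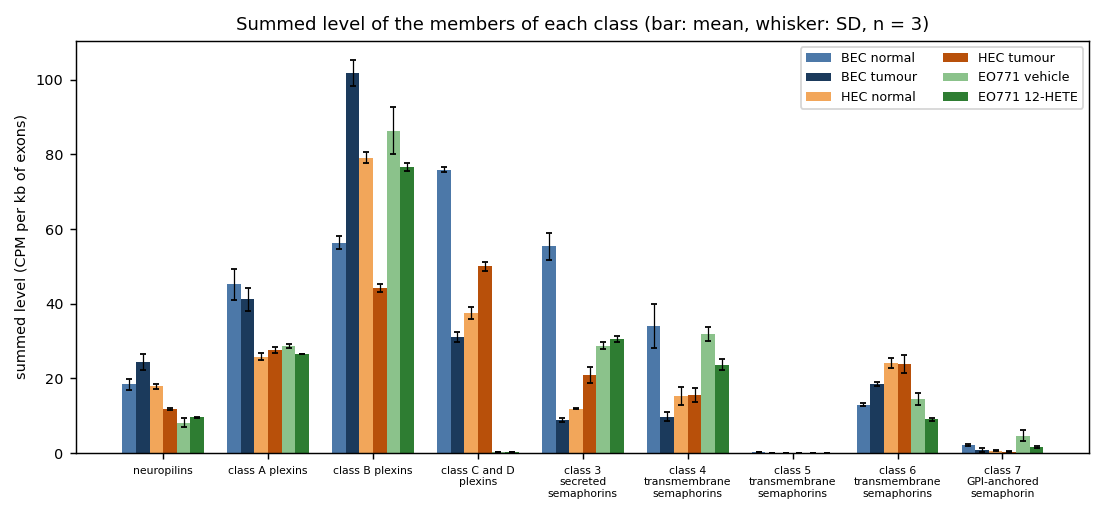
Summed level of the members of each class, in CPM per kb of merged exons, in each group (bar: mean, whisker: SD, n = 3). Class 3 semaphorins summed to 55.3 in BEC normal and 8.82 in BEC tumour, and class B plexins to 56.4 and 102. The endothelial and EO771 tables were normalised separately.

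Levels of different members were compared per length, as CPM per kb of merged exons, the scale of this paragraph. In the endothelial groups, receptors stood at the top: Plxnd1 was first in BEC normal at 75.9 ± 0.627 (SD, n = 3, as for the levels that follow) and in HEC tumour at 49.8 ± 1.18, and Plxnb2 was first in BEC tumour at 102 ± 3.498 and in HEC normal at 79.1 ± 1.52. The most abundant semaphorin was Sema3f in BEC normal, at 46.3 ± 3.42, and Sema6b in the other endothelial groups, at 17.3 ± 0.360 in BEC tumour, then 22.0 ± 1.44 in HEC normal and 21.2 ± 1.49 in HEC tumour. In HEC tumour, Sema3f at 19.2 ± 2.27 did not differ from Sema6b beyond their spread. Class 3 semaphorins together made up 18.4% of the summed level of all members in BEC normal and 3.73% in BEC tumour, whereas they were 5.59% in HEC normal and 10.7% in HEC tumour. Class B plexins, nearly all of it Plxnb2, were 18.8%, 43.0%, 37.3% and 22.8% in the same order. Most of the class 3 sum was Sema3f, at 46.3 of 55.3 in BEC normal and 5.64 of 8.82 in BEC tumour. In HEC normal Sema3f was 10.6 of 11.9, and in HEC tumour 19.2 of 20.8. Sema5b was the lowest member, at 0 in every library but 1.

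Of the 31 members, 30 passed the filter on low values in the endothelial fit and were tested, Sema5b being the exception. A member was called when its adjusted p in DESeq2's Wald test was under 0.05 and its fold change over 2. In HEC normal against BEC normal, 3 members were higher and 16 lower, and the background over all genes was 17.1% higher and 15.1% lower. The median log2 fold change was -1.25 over the members tested and 0.00 over all genes. In BEC tumour against BEC normal, 2 were higher and 16 lower, against a background of 12.4% and 10.8%, and the median was -1.19 against 0.01. In HEC tumour against BEC tumour, 4 were higher and 11 lower, against 11.2% and 10.7%, with a median of -0.53. Without BEC tumour replicate 2 this last count of lower members was 7. In HEC tumour against HEC normal, 2 were higher and 2 lower, against 4.58% and 3.21%, and the median was -0.08 against 0.02. The higher count was 1 without HEC tumour replicate 2 and 1 without replicate 3. The share of members that were lower was thus over 3 times the background in 3 of these comparisons, which share groups with one another and are not independent.

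The tumour changes of BECs and HECs were set against each other by the interaction, which subtracts the log2 tumour change of BECs from that of HECs. It was called higher for 13 members and lower for 5, where the background was 11.2% and 12.1%, and its median was 1.09 against 0.00 over all genes. Markers of other cells moved with these comparisons. The macrophage list was higher and the fibroblast list lower in BEC tumour than BEC normal, with the values above. Of the fibroblast and pericyte list, Acta2 and Col1a1 made up most of the sum in BEC normal. Both were lower in BEC tumour, as were Pdgfra, Pdgfrb, Col1a2, Rgs5 and Cspg4. Lum was higher there, at 0.0504 to 0.816 CPM against 0, and Dcn and Des overlapped. The pan-endothelial list summed to 2405 to 2459 CPM in BEC tumour and 3306 to 3503 in BEC normal. The genes of that last list did not move together. Pecam1, Tek, Egfl7, Esam, Cldn5 and Kdr were lower in BEC tumour, and Tie1 and Erg higher. Cdh5, with means of 905 CPM in BEC tumour and 911 in BEC normal, and Fli1 overlapped. The part of these markers in the member changes was not tested. In bulk libraries, fewer cells of a type and less RNA per cell cannot be told apart.

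**Figure D2:**
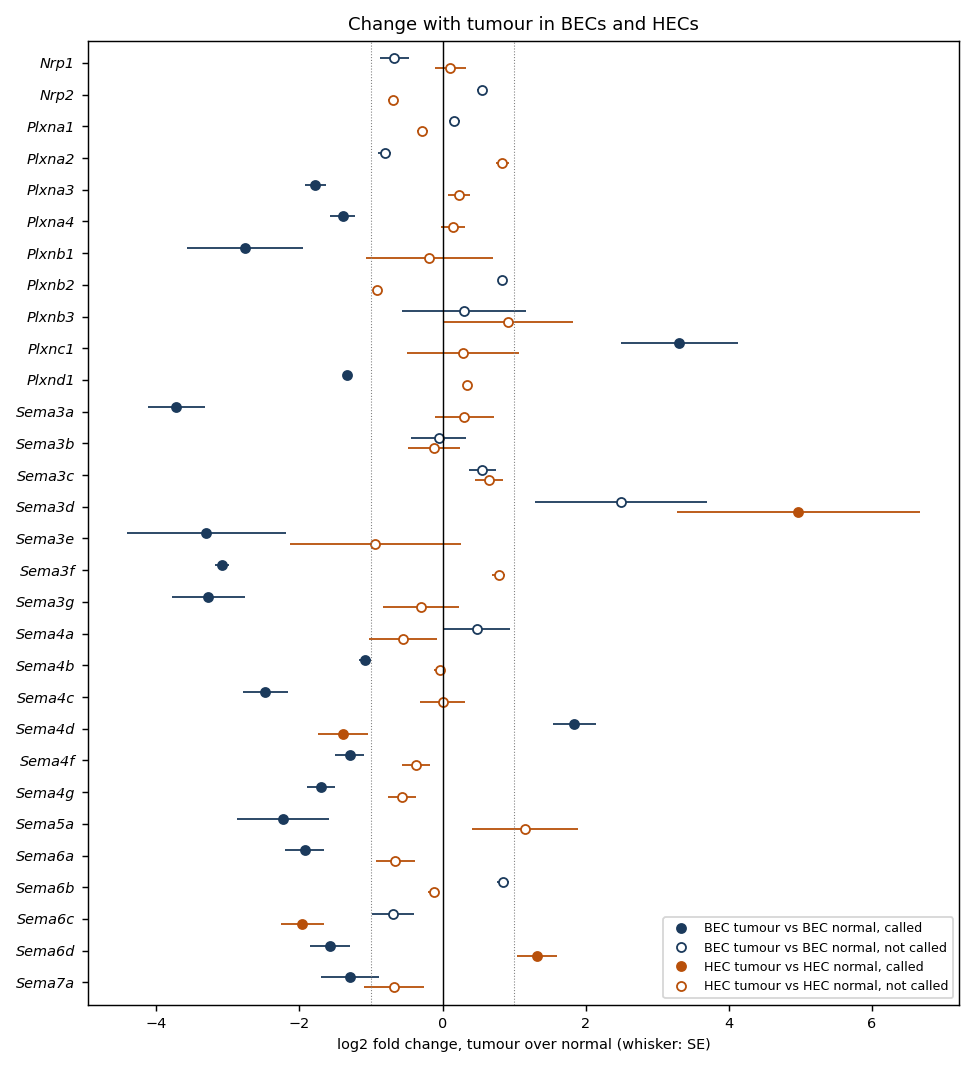
Log2 fold change with tumour (whisker: SE) of the 30 tested members in BECs (dark blue) and HECs (orange), filled where called. In BECs 16 members lie at the left as called and 2 at the right, whereas in HECs 2 lie at each side.

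Both neuropilins were expressed by all endothelial groups, but in very different proportion. Nrp1 was 2838, 2296 and 2679.8 normalised counts in the 3 libraries of BEC normal, 1792, 1863 and 1248 in BEC tumour, then 199.8, 172 and 280.0 in HEC normal and 211, 229.9 and 260.1 in HEC tumour. Every HEC library lay below every BEC library. Nrp1 was 12.0-fold lower in HEC normal than BEC normal (log2 fold change -3.58 ± 0.21 (SE), adjusted p = 4.32e-64) and 6.99-fold lower in HEC tumour than BEC tumour (-2.81 ± 0.21, adjusted p = 3.08e-39). Its fold change with tumour in BECs, 1.59-fold down with adjusted p = 0.0023, was under the limit of 2, and in HECs the 95% interval of the log2 change ran from -0.32 to 0.53.

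Nrp2 differed in opposite directions with tumour in the 2 endothelial types. It was 12701, 11329.7 and 11724 normalised counts in BEC normal, 18429, 18019 and 15989 in BEC tumour, then 14821, 13871 and 13786 in HEC normal and 8881, 8501 and 8979 in HEC tumour, with no overlap between any of these groups. In HECs it was 1.61-fold lower with tumour (log2 fold change -0.69 ± 0.07, adjusted p = 1.16e-19), in BECs 1.47-fold higher (0.55 ± 0.07, adjusted p = 1.76e-13), each under the fold limit for a call. The interaction was called, at -1.24 ± 0.10 (adjusted p = 3.5e-32). The ratio of Nrp2 to Nrp1, per length, was 3.80 ± 0.247 in BEC normal, 9.02 ± 1.37 in BEC tumour, but 56.2 ± 13.7 in HEC normal libraries and 31.3 ± 3.17 in HEC tumour (SD, n = 3 each). HECs had the higher ratio in every library, and Nrp1 differed more between BEC normal and HEC normal than Nrp2 did.

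**Figure D3:**
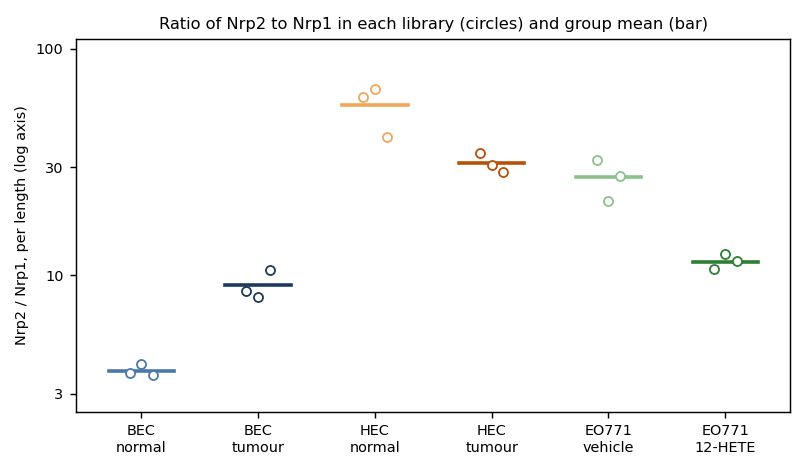
Ratio of Nrp2 to Nrp1 per length on a log axis, in each of the 18 libraries (circles) with the group mean (bar). The ratio lay between 3.61 and 4.08 in BEC normal and between 40.7 and 66.6 in HEC normal.

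Class A plexins are the signalling partners of neuropilins. Plxna1, the receptor named by the study, was 18296, 15939 and 17447 normalised counts in BEC normal, 19953, 20383 and 17610.5 in BEC tumour, then 12556, 11584 and 12544 in HEC normal and 10276, 9862 and 10054 in HEC tumour. HEC levels lay below BEC levels in every library, but by less than 2-fold: 1.41-fold in normal (adjusted p = 4.06e-10) and 1.92-fold in tumour tissue (adjusted p = 2.86e-33). With tumour it was 1.22-fold lower in HECs (adjusted p = 0.00123), and in BECs its 95% interval on the log2 scale ran from 0.02 to 0.31. Exons of Plxna1 overlap the antisense gene Gm26811 over 10.7% of their length, and the counting setting for strand is not given in the sources used here.

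Plxna2 was 18544, 14512 and 16898 in the BEC normal libraries, 9787, 9779.5 and 8917 in BEC tumour, 5543, 5418 and 5524 in the HEC normal libraries and 10133, 9221 and 9998 in HEC tumour. The groups were thus 3.03-fold apart in normal tissue (log2 fold change -1.60 ± 0.09, adjusted p = 1.45e-67) and overlapped in tumour tissue, where the interval of the log2 difference ran from -0.13 to 0.22. The interaction was 1.64 ± 0.13 (adjusted p = 9.72e-36). Plxna3 was 1564, 1425 and 1649.7 in BEC normal and 374, 508 and 473 in BEC tumour, 3.43-fold lower with tumour (adjusted p = 6.71e-33). In HEC normal it was 273, 337 and 279, already 5.22-fold below BEC normal (adjusted p = 2.54e-56), and in HEC tumour 332, 343 and 366. Plxna4 was 711, 804 and 807 in BEC normal, 754, 803 and 715 in HEC normal and 818, 742 and 949 in HEC tumour, and BEC tumour stood apart with 340.4, 318 and 224. It fell 2.63-fold with tumour in BECs (adjusted p = 2.97e-15), and in tumour tissue HECs were 2.84-fold above BECs (adjusted p = 1.38e-17). Interactions of Plxna3, 2.01 ± 0.21, and Plxna4, 1.54 ± 0.24, were both called.

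Class B plexins are receptors of class 4 semaphorins, and Plxnb2 was by far the most abundant of them in endothelium. It was 29900.3, 28638 and 29917 normalised counts in BEC normal, 52202, 54561 and 51166 in BEC tumour, then 41309, 42640.0 and 41107 in HEC normal and 22632, 21523 and 22316 in HEC tumour. As with Nrp2, the order of BECs and HECs turned with tumour: HECs were 1.41-fold above BECs in normal tissue and 2.38-fold below them in tumour tissue (log2 fold change -1.25 ± 0.04, adjusted p = 4.07e-187). With tumour it was 1.79-fold higher in BECs and 1.88-fold lower in HECs, each just under the fold limit, and the interaction was -1.75 ± 0.06 (adjusted p = 1.14e-183).

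Plxnb1, a receptor of SEMA4D, was 767, 748 and 789 in BEC normal and 77.9, 120.1 and 142 in BEC tumour, but only 16.2, 0 and 18.2 in HEC normal and 18.5, 11.8 and 0 in HEC tumour, at most about 5 fragments in a library. It was called lower in HECs in both tissues (adjusted p = 3.04e-12 and 0.000141). The fold change, 66.9-fold in normal tissue, rests on those few fragments: its log2 value moved from -6.06 to -5.48 without HEC normal replicate 2, and in tumour tissue from -3.49 to -4.23 without HEC tumour replicate 1. With tumour Plxnb1 was 6.78-fold lower in BECs (adjusted p = 0.00171), and BEC normal and BEC tumour did not overlap. The call was lost when any of the 3 BEC tumour libraries was left out (adjusted p = 0.117, 0.0863 and 0.0647 without replicates 1, 2 and 3). These fits take the spread estimate of a gene from all endothelial groups, here including HECs near 0. The call was kept in a fit of BEC normal and BEC tumour only. Plxnb3 was at most 25.4 in any endothelial library and was not called.

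**Figure D4:**
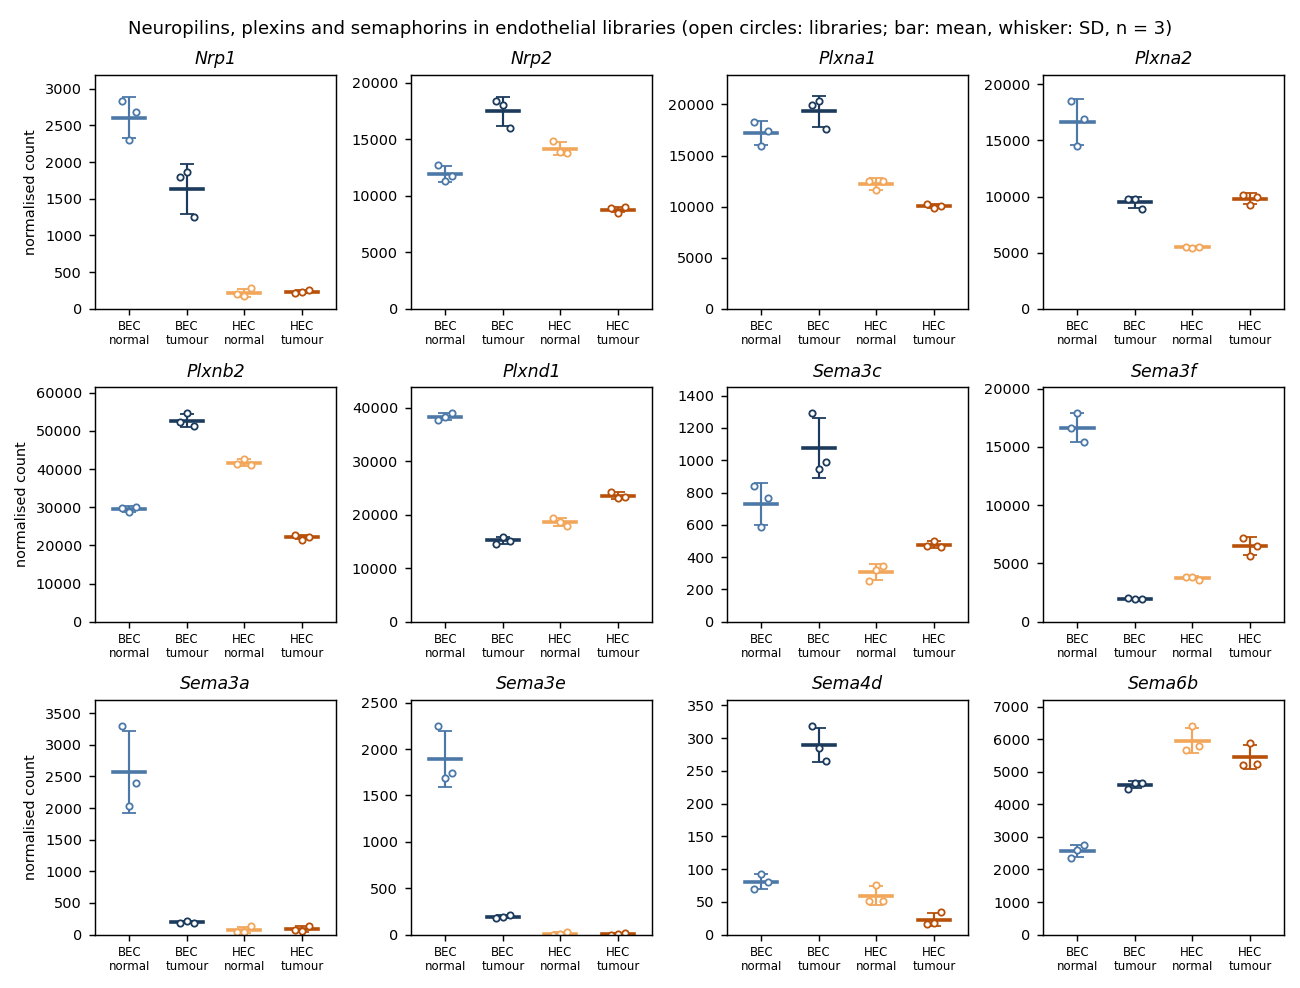
Normalised counts of 12 members in the 12 endothelial libraries (circles), with group mean (bar) and SD (whisker), n = 3, on axes from 0. Nrp2 and Plxnb2 were highest in BEC tumour and lowest in HEC tumour, whereas Plxnd1, Sema3f, Sema3a and Sema3e were highest in BEC normal.

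Plxnd1, the direct receptor of SEMA3E in vessels, was the leading plexin of BEC normal. It was 37757, 38331 and 38946 normalised counts there, 14491, 15889 and 15172 in BEC tumour, then 19428, 18726 and 17835 in HEC normal and 24324, 23149.5 and 23294 in HEC tumour, with no overlap between the groups. It fell 2.53-fold with tumour in BECs (log2 fold change -1.34 ± 0.05, adjusted p = 1.16e-143). In HECs it was 1.26-fold higher with tumour, under the limit, and the interaction was 1.67 ± 0.07 (adjusted p = 2.11e-112). In normal tissue HECs were 2.05-fold below BECs, which passed the fold limit barely and did not pass it with TMM size factors or in edgeR, where the log2 values were -0.998 and -0.998. Plxnc1, the receptor of SEMA7A, was 104, 46.8 and 79.3 in HEC normal and 87.7, 108 and 86.3 in HEC tumour, and among BECs 3.53, 0 and 28.4 in normal and 115, 111 and 91.5 in tumour tissue. It was called higher in HECs than in BECs of normal tissue (adjusted p = 0.00111) and in BECs with tumour (adjusted p = 0.000168). The size depended on BEC normal replicate 3: the log2 values, 2.85 and 3.31, became 5.27 and 5.73 without it. The interaction, -3.02 ± 1.13, was called with adjusted p = 0.019 and became -5.44 without BEC normal replicate 3, and its adjusted p was 0.0516, 0.0514 and 0.0642 without BEC tumour replicate 1, BEC tumour replicate 2 and HEC normal replicate 1, and 0.0504 in edgeR. Plxnc1 is also made by myeloid cells, whose marker list was higher in BEC tumour, and their part in the result was not tested.

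Of the secreted class 3 semaphorins, 6 of 7 were lower in HEC normal than BEC normal, where 15.1% of all genes were, and 1 of the 6, Sema3d, had both group means under the value of 3 fragments. In BECs 4 of 7 fell with tumour, where 10.8% of all genes did, and none was called higher. Sema3f, whose product binds NRP2, was 16660.1, 17882 and 15432 normalised counts in BEC normal and 2053, 1909 and 1943 in BEC tumour. The BEC tumour libraries lay within a narrow range, 8.46-fold lower (log2 fold change -3.08 ± 0.10, adjusted p = 1.12e-222). In HECs the direction was opposite: Sema3f was 3841, 3827 and 3621 in HEC normal and 7224, 5662 and 6527 in HEC tumour, 1.72-fold higher with tumour (adjusted p = 9.37e-15), short of the fold limit. HECs were 4.43-fold below BECs in normal tissue (adjusted p = 4.3e-110) and 3.29-fold above them in tumour tissue (adjusted p = 6.98e-69), and the interaction was 3.86 ± 0.14 (adjusted p = 2.22e-175).

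Sema3a, a ligand of NRP1, was 3294, 2032 and 2402 in BEC normal and 188, 216 and 181 in BEC tumour, and stayed low in HECs, at 47.7, 44.8 and 129.96 in HEC normal and 69.3, 63.2 and 143 in HEC tumour. It fell 13.2-fold with tumour in BECs (log2 fold change -3.72 ± 0.40, adjusted p = 8.9e-20) and was 34.7-fold lower in HEC normal than BEC normal (adjusted p = 2.16e-35). HEC normal replicate 3 carried most of the little signal there, and without it the log2 value went from -5.12 to -5.80. In tumour tissue Sema3a was 2.13-fold lower in HECs (adjusted p = 0.0157), which was lost without BEC tumour replicate 2, HEC tumour replicate 1 or HEC tumour replicate 2 (adjusted p = 0.0644, 0.0804 and 0.0904). The interaction was 4.03 ± 0.58 (adjusted p = 2.23e-11), and 4.71 without HEC normal replicate 3.

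Sema3e, the ligand of plexin D1, was 2245, 1692 and 1742 in BEC normal and 184, 184 and 209 in BEC tumour, against 0, 8.14 and 24.8 in HEC normal and 0, 3.95 and 13.3 in HEC tumour. It fell 9.84-fold with tumour in BECs (log2 fold change -3.30 ± 1.11, adjusted p = 0.00668), with an SE from a spread estimate shared with the HEC groups. HECs held 9.02 fragments over the 3 normal libraries and 4.24 over the 3 tumour libraries, and were called lower in both tissues (adjusted p = 2.41e-10 and 4.67e-05) with fold changes that have little precision. Without HEC normal replicate 1 or 3 the normal log2 value of -7.42 became -6.83 or -8.86, and without HEC tumour replicate 3 the tumour value of -5.07 became -6.56. Ligand and receptor of the SEMA3E and plexin D1 pair were thus both lower in BEC tumour than BEC normal.

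Sema3g, a ligand made by endothelium and fat, was 526, 614 and 494 in BEC normal and 20.4, 105 and 43.6 in BEC tumour, 9.66-fold lower with tumour (adjusted p = 6.14e-10). BEC tumour replicate 2 was the highest of its group, and without it the log2 value went from -3.27 to -4.08. In HEC normal it was 45.6, 62.1 and 45.9, 10.6-fold below BEC normal (adjusted p = 8.8e-11), and in HEC tumour 34.6, 63.2 and 26.6. The interaction was 2.97 ± 0.73 (adjusted p = 0.00018), and 3.79 without BEC tumour replicate 2. Adipoq, a marker of fat cells, was at 0 in BEC normal and at most 0.443 CPM in BEC tumour.

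Sema3c was higher with tumour in both cell types, by less than the fold limit for a call. It was 839, 587 and 769 in the BEC normal libraries, 1290.3, 944 and 991 in BEC tumour, 252, 319 and 348 in the HEC normal libraries and 469, 500.3 and 465 in HEC tumour. The fold changes with tumour were 1.47 in BECs (log2 fold change 0.55 ± 0.19, adjusted p = 0.00738) and 1.56 in HECs (0.64 ± 0.19, adjusted p = 0.00393), and the groups did not overlap in either. EO771 cells express both Sema3c and Krt8, and among BEC tumour libraries Krt8 was highest in replicate 3 and Sema3c in replicate 1. The part of tumour cells in the result was not tested. The 95% interval of the interaction ran from -0.44 to 0.62 on the log2 scale. HECs were 2.39-fold below BECs in normal tissue (adjusted p = 2.57e-10) and 2.25-fold below in tumour tissue (adjusted p = 4.06e-09). Sema3b was higher in HECs, at 144, 83.5 and 129 in HEC normal against 39.7, 51.8 and 61.0 in BEC normal, 2.34-fold (adjusted p = 0.00211), and 122, 126 and 79.7 in HEC tumour against 64.9, 34.7 and 47.1 in BEC tumour, 2.24-fold (adjusted p = 0.00441). The latter fell below the fold limit without BEC tumour replicate 2, at a log2 value of 0.97. Sema3d was near the limit of detection: it was 0, 0 and 0 in HEC normal and 0, 3.95 and 13.3 in HEC tumour, and among BECs 9.70, 14.1 and 4.06 in normal and 94.6, 42.3 and 19.2 in tumour tissue. Its call as higher in HEC tumour than HEC normal rests on 4.24 fragments against 0, both at or under the value of 3 fragments in their group mean, so no fold is given. That call was lost without HEC tumour replicate 3 (adjusted p = 0.14), in edgeR (adjusted p = 0.051) and with values divided by their step (adjusted p = 0.176). No fold is given either for its call as lower in HEC normal than BEC normal, where both group means were under that value. In tumour tissue it was called lower in HECs (log2 fold change -3.18 ± 1.22, adjusted p = 0.0192), but not without BEC tumour replicate 1, at -2.42 (adjusted p = 0.19), BEC tumour replicate 2 or HEC tumour replicate 2 (adjusted p = 0.0623 and 0.0784), and it was -4.67 without HEC tumour replicate 3.

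Class 4 semaphorins split in BECs with tumour, where 4 of 6 were lower and 1 higher, against 10.8% and 12.4% of all genes. Sema4c, the most abundant of them in BEC normal, was 5627, 8784 and 9018 normalised counts there, 988, 1637 and 1579.7 in BEC tumour, then 1773, 1656 and 3071 in HEC normal and 2719.8, 2495 and 1299 in HEC tumour. HEC normal replicate 3 and HEC tumour replicate 3 lay apart from the other libraries of their groups, in opposite directions. It fell 5.57-fold with tumour in BECs (log2 fold change -2.48 ± 0.32, adjusted p = 3.65e-14), was 3.604-fold lower in HEC normal than BEC normal (adjusted p = 1.71e-08), and had an interaction of 2.48 ± 0.45 (adjusted p = 1.76e-07). Exons of Sema4c overlap D430040D24Rik on the other strand over 7.27% of their length. Sema4b was 3174, 3253 and 3253 in BEC normal and 1519, 1628 and 1411 in BEC tumour, against 2885, 2865 and 2696 in HEC normal and 2618, 2628 and 2973 in HEC tumour, and fell 2.12-fold in BECs with tumour (adjusted p = 8.75e-41). Its interaction, 1.05 ± 0.11, passed the fold limit narrowly and did not pass it without BEC tumour replicate 3 or HEC tumour replicate 3, at 0.99 and 0.98, or with TMM size factors or edgeR, at 0.987 in each.

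Sema4d, which acts on plexin B1 and on CD72 of lymphocytes, was the class 4 member called higher with tumour in BECs. It was 69.7, 93.0 and 80.3 in BEC normal and 318, 284 and 266 in BEC tumour, 3.58-fold higher with tumour (log2 fold change 1.84 ± 0.30, adjusted p = 3.75e-09). In HECs it was 50.7, 76.3 and 51.6 in HEC normal and 16.2, 17.8 and 34.3 in HEC tumour, 2.62-fold lower (adjusted p = 0.00041). HEC tumour was 12.7-fold below BEC tumour (adjusted p = 2.08e-26) and the interaction was -3.23 ± 0.46 (adjusted p = 2.02e-11). Sema4d is abundant in leukocytes, and Ptprc, the gene of CD45, was 5.95 to 12.8 CPM in BEC tumour and at most 0.435 CPM in the other endothelial libraries, so that Ptprc moved with Sema4d. Its part in the result was not tested. Sema4f, at 181, 171 and 190.0 in BEC normal and 81.6, 68.5 and 70.6 in BEC tumour, and Sema4g, at 262, 326 and 331 and 96.5, 88.8 and 98.5, fell 2.46-fold and 3.23-fold with tumour in BECs (adjusted p = 7.24e-10 and 5.01e-17). In HECs Sema4f was 143, 130.3 and 170.1 in HEC normal and 112, 119 and 112 in HEC tumour, and Sema4g 199.8, 266 and 255 and 149, 173 and 165, neither called, and the interaction of Sema4g was 1.13 ± 0.27 (adjusted p = 0.000156). Sema4a was at most 109.8 in any endothelial library. It was called lower in HEC tumour than BEC tumour, at 37.4 ± 15.1 normalised counts (SD, n = 3) against 92.7 ± 14.98 normalised counts (SD, n = 3), but not without BEC tumour replicate 3, HEC tumour replicate 1 or HEC tumour replicate 3 (adjusted p = 0.0641, 0.0504 and 0.0662).

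Class 5 was low throughout, and lowest in HECs. Sema5a, whose product carries thrombospondin repeats, was 252, 182 and 221 normalised counts in BEC normal, 23.2, 73.6 and 42.7 in BEC tumour, then 8.11, 0 and 11.5 in HEC normal and 15.01, 7.89 and 21.0 in HEC tumour. It fell 4.70-fold with tumour in BECs (adjusted p = 0.00143) and was called lower in HEC normal than BEC normal (log2 fold change -5.06 ± 0.71, adjusted p = 5.97e-12), where HECs held 5.31 fragments in all and the log2 value became -5.75 without HEC normal replicate 3. The interaction was 3.38 (adjusted p = 0.00188), and 2.79 or 4.07 without HEC normal replicate 2 or 3. In tumour tissue its call as lower in HECs (adjusted p = 0.0277) was lost without BEC tumour replicate 2, BEC tumour replicate 3, HEC tumour replicate 1 or HEC tumour replicate 2 (adjusted p = 0.181, 0.064, 0.0672 and 0.116), and in edgeR (adjusted p = 0.0721).

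Class 6 semaphorins bind class A plexins without a neuropilin, and Sema6b led them. It was 2363, 2584 and 2743 in the BEC normal libraries, 4486, 4668 and 4663 in BEC tumour, 5660.4, 6400.0 and 5807 in the HEC normal libraries and 5224, 5892 and 5253 in HEC tumour. It was 2.32-fold higher in HEC normal than BEC normal (log2 fold change 1.22 ± 0.08, adjusted p = 2.54e-47), and 1.80-fold higher in BEC tumour than BEC normal (adjusted p = 3.54e-23), under the limit. Sema6d went apart in the 2 cell types: it was 1526, 1789 and 1119 in BEC normal and 406, 633 and 451 in BEC tumour, 2.98-fold lower with tumour (adjusted p = 1.05e-07), and 609, 572 and 557 in HEC normal and 934, 2053 and 1348 in HEC tumour, 2.495-fold higher (adjusted p = 2.07e-05). HEC tumour replicate 2 was the highest, and without it the log2 change in HECs was 0.98, under the limit. Sema6d was also called 2.55-fold lower in HEC normal than BEC normal and 2.91-fold higher in HEC tumour than BEC tumour, and the interaction was 2.89 ± 0.40 (adjusted p = 3.48e-12).

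Sema6c was 424, 305 and 349.7 in HEC normal and 93.5, 128 and 55.3 in HEC tumour, the largest decrease among members in HECs, 3.88-fold (log2 fold change -1.96 ± 0.30, adjusted p = 8.1e-10). In BECs it was 242, 242 and 232 in BEC normal and 152, 174 and 118 in BEC tumour, not called, and the interaction was -1.27 ± 0.42 (adjusted p = 0.00663). Sema6a was 316, 219 and 227 in HEC normal and 118, 163 and 203 in HEC tumour, and among BECs 659.6, 494 and 672 in normal and 163, 195 and 122 in tumour tissue. It fell 3.80-fold with tumour in BECs (adjusted p = 1e-11), was 2.40-fold lower in HEC normal than BEC normal, and had an interaction of 1.27 ± 0.39 (adjusted p = 0.00321). Sema7a, which binds integrins and plexin C1, was 449.7, 429.5 and 536 in BEC normal and 103, 333 and 139 in BEC tumour, against 111, 155 and 133 in HEC normal and 62.3, 79.9 and 106 in HEC tumour. It was 3.56-fold lower in HEC normal than BEC normal (adjusted p = 1.75e-05). Its calls in tumour tissue turned on single libraries: with tumour in BECs the log2 value of -1.30 was -1.96 without BEC tumour replicate 2 and -0.99 without replicate 1, and for HEC tumour against BEC tumour the value of -1.21 was -0.55 without BEC tumour replicate 2 (adjusted p = 0.12).

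In EO771 cells, 19 of the 31 members passed the filter on low values. With vehicle, Plxnb2, Plxna1, Plxnb1 and Sema4b had the highest levels per length, and with 12-HETE these were Plxnb2, Plxna1, Sema4b and Sema3b. Plxnd1, Sema3a and Sema3e were low here: with vehicle Plxnd1 was 38.3 ± 5.68 normalised counts (SD, n = 3), Sema3a 12.6 ± 5.46 normalised counts (SD, n = 3) and Sema3e 3.33 ± 1.63 normalised counts (SD, n = 3), and Sema3d and Sema5b were at 0 in all 6 libraries. Per length, in CPM per kb, Sema3c was 7.20 ± 0.749 with vehicle and 11.5 ± 0.269 with 12-HETE. In the endothelial table, which was normalised separately, it was 2.24 ± 0.396 in BEC tumour and 1.03 ± 0.0427 in HEC tumour on the same scale.

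With 12-HETE, 2 members were called higher and 2 lower, where the background was 2.38% higher and 7.79% lower, and the median log2 fold change was -0.11 against 0.00 over all genes. Nrp1 was 45.5, 52.6 and 55.3 normalised counts with vehicle and 148, 125 and 137 with 12-HETE, 2.67-fold higher (log2 fold change 1.42 ± 0.22, adjusted p = 2.78e-09). Plxna2 was 133, 148 and 147 and 308, 279.9 and 295, 2.06-fold higher (1.04 ± 0.15, adjusted p = 9.91e-11), just over the limit and at 0.99 without EO771 vehicle replicate 1, so that the count of higher members was then 1. Plxnb1 was 3971, 4772 and 3797 and 1811, 1771 and 1944, 2.27-fold lower (-1.18 ± 0.12, adjusted p = 4.19e-22). Sema7a was 322, 182 and 325 and 92.4, 120.2 and 92.5, 2.71-fold lower (-1.44 ± 0.26, adjusted p = 3.08e-07). None of the 4 overlapped between treatments, which adds little, since they were picked for differing between them.

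Sema3c was higher with 12-HETE in every library, but by less than the fold limit. It was 826, 921 and 999 normalised counts with vehicle and 1538, 1493 and 1481 with 12-HETE, 1.64-fold higher (log2 fold change 0.72 ± 0.11, adjusted p = 3.1e-10). Sema6b, at 859.9, 1010.0 and 765 against 533, 542 and 513, was 1.66-fold lower (adjusted p = 5.79e-07), Sema4a 1.47-fold (adjusted p = 0.0067) and Sema4b 1.27-fold lower (adjusted p = 0.00156). The receptors of class 3 semaphorins other than Nrp1 and Plxna2 were not called: Nrp2 was 1786, 1359 and 1836 and 1899, 1874 and 1909, with an interval of the log2 change from -0.07 to 0.45, and Plxna1 was 4398, 4284 and 4468 and 4023, 4038 and 4082, from -0.25 to 0.02. The ratio of Nrp2 to Nrp1 per length was 27.1 ± 5.54 with vehicle and 11.5 ± 0.88 with 12-HETE (SD, n = 3 each). EO771 vehicle replicate 2 stood at one end of its group for several of these genes, lowest for Nrp2 and Sema7a and highest for Plxnb1, Sema6b and Sema4a. Epithelial markers summed to 3243 to 4251 CPM with vehicle and 2184 to 2240.3 with 12-HETE, and fibroblast and pericyte markers to 391 to 615 and 998 to 1038. Nearly all of the latter sum was the single gene Dcn, at 385 to 608 CPM with vehicle and 987 to 1028 with 12-HETE. The part of these markers in the member changes was not tested.

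**Figure D5:**
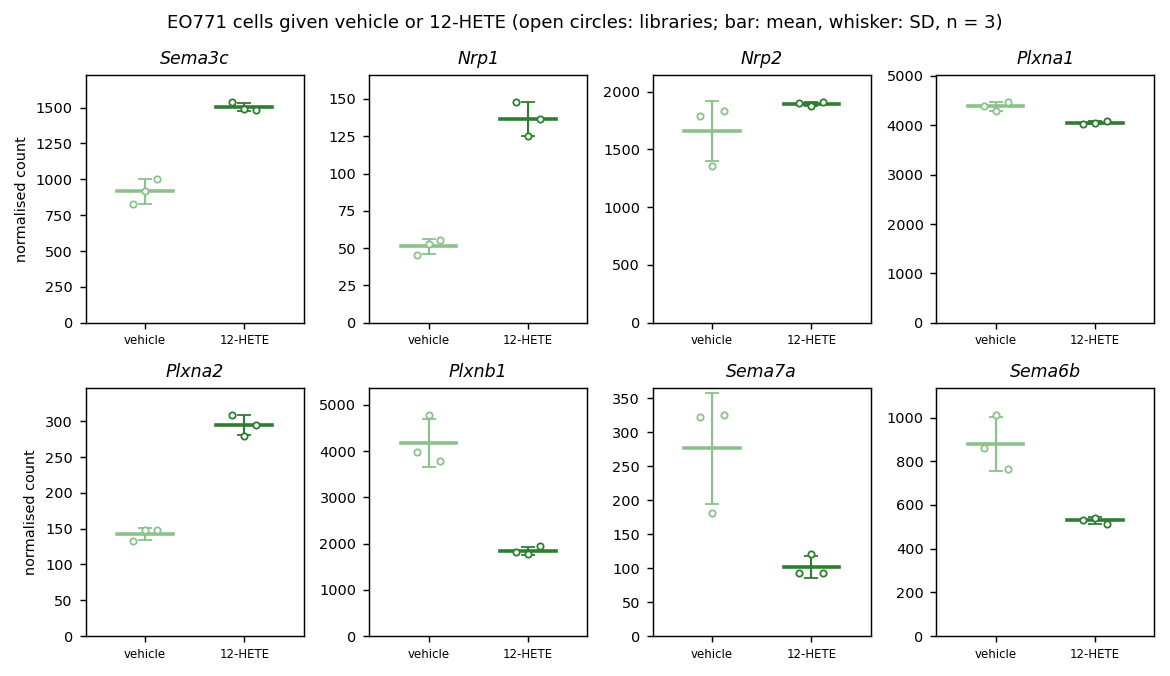
Normalised counts of 8 members in the 6 EO771 libraries (circles), with group mean (bar) and SD (whisker), n = 3, on axes from 0. Sema3c, Nrp1 and Plxna2 lay higher with 12-HETE in each library, and Plxnb1, Sema7a and Sema6b lower.

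Partners of the system were counted from 3 further lists, and as a background 17.1% of all genes were higher and 15.1% lower in HEC normal against BEC normal, 11.2% and 10.7% in HEC tumour against BEC tumour, 4.58% and 3.21% in HEC tumour against HEC normal, 12.4% and 10.8% in BEC tumour against BEC normal, 11.2% and 12.1% for the interaction, and 2.38% and 7.79% in EO771. Of 14 co-receptors and alternative receptors, 13 were tested in the endothelial fit. In BEC tumour against BEC normal 3 were higher and 3 lower: the integrin Itga1 rose (log2 fold change 3.00 ± 0.10), as did the cell adhesion gene Nrcam (1.27 ± 0.23) and Cd72 (2.49 ± 0.83), a SEMA4D receptor of B cells, while the VEGF receptors Kdr (-2.33 ± 0.08) and Flt1 (-1.11 ± 0.09) and the NRP1 partner L1cam (-1.97 ± 0.80) fell. In HEC normal against BEC normal 2 were higher, Itga1 (2.51 ± 0.11) and Nrcam (3.84 ± 0.23), and 4 lower, led by Kdr (-2.20 ± 0.08), Itgb1 (-1.37 ± 0.06) and Flt1 (-1.45 ± 0.09). In HEC tumour against BEC tumour Nrcam was higher (2.502 ± 0.21), and Met (-1.53 ± 0.12), Cd72 (-3.83 ± 0.84) and L1cam (-2.08 ± 0.87) were lower. In HEC tumour against HEC normal 0 of the 13 were called, and in EO771 0 of the 9 tested were called. The interaction was called higher for 1, Kdr (3.09 ± 0.11), and lower for 4, led by Itga1 (-3.04 ± 0.14), Ptk7 (-1.19 ± 0.15) and Nrcam (-1.33 ± 0.31).

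Of 33 effectors downstream of plexins, 32 were tested in endothelium, and the shares called in HECs against BECs of normal tissue were near that background. In HEC normal against BEC normal 6 were higher, led by Crmp1 (log2 fold change 2.22 ± 0.05), Pak1 (2.41 ± 0.08) and Rnd1 (1.37 ± 0.06), and 5 lower, led by the actin oxidase gene Mical2 (-2.44 ± 0.09), Farp1 (-2.61 ± 0.11) and Sh3bp1 (-4.94 ± 0.23). In BEC tumour against BEC normal Crmp1 (1.78 ± 0.05) and Pak1 (1.51 ± 0.08) were higher and 4 were lower, led by Fyn (-1.35 ± 0.06), Mical2 (-1.52 ± 0.09) and Farp1 (-1.52 ± 0.11). In HEC tumour against BEC tumour none was higher and 4 were lower, led by Arhgef11 (-1.05 ± 0.06), Sh3bp1 (-2.86 ± 0.24) and Farp1 (-1.11 ± 0.11), and in HEC tumour against HEC normal only Pak1 was called, lower (-1.05 ± 0.08). The interaction was called higher for 5, led by Mical2 (2.12 ± 0.13), Fyn (1.34 ± 0.08) and Rap1b (1.12 ± 0.09), and lower for 3, Crmp1 (-2.03 ± 0.07), Pak1 (-2.57 ± 0.11) and the CRMP family gene Dpysl2 (-1.46 ± 0.09). In EO771, of 27 tested, Rnd1 (-1.60 ± 0.12), a GTPase that binds plexins, and the kinase gene Fes (-1.25 ± 0.19) were lower with 12-HETE.

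Of 5 proteases that cleave class 3 semaphorins, 4 were tested. In BECs with tumour Adamts1 (-2.07 ± 0.06) and Pcsk6 (-5.48 ± 0.45) fell, and in normal tissue HECs were lower in Adamts1 (-2.11 ± 0.06), Pcsk6 (-8.51 ± 0.60) and Pcsk7 (-1.95 ± 0.16). In tumour tissue HECs were lower in Pcsk6 (-2.25 ± 0.56). The group means of Pcsk6 in HEC normal and HEC tumour, and of L1cam in HEC tumour, were under the value of 3 fragments, so the sizes of their changes have little precision. The interaction was called higher for 3, Adamts1 (2.91 ± 0.08), Pcsk6 (6.25 ± 0.82) and Pcsk7 (1.03 ± 0.23). Adamts1 was also lower with 12-HETE in EO771 (-1.25 ± 0.11). The medians of the 3 lists in BEC tumour against BEC normal were -0.15, -0.18 and -1.48 on the log2 scale, against 0.01 over all genes.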

How the data were processed

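RNA was sequenced from 12 sorted endothelial libraries and 6 libraries of EO771 cells. The authors aligned endothelial reads to GRCm38 with STAR and summarised them per gene with featureCounts, and these deposited values were treated as estimated counts, since they are whole numbers in steps of 3.745 to 3.83. Divided by the step, totals were 15.0 to 21.0 M. For EO771 cells the authors deposited raw counts per gene symbol, with no such steps. The strand setting of the counting is not given in the sources used here. The methods describe removal of duplicate reads from EO771 libraries in the analysis of RNA editing and do not say outright whether it applied to the counts. Labels and methods name different library kits.

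Members were all genes fitting the symbol rule. Every member was to be named with its level, with values per library for those called in a comparison and over 100 normalised counts in a group, and of each partner list up to 3 called genes per direction with the largest Wald statistic. The members and lists were chosen with earlier results of these data known.

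Lines with a mean of at least 10 were tested with DESeq2 1.42.0 in R 4.3.3 (18511 endothelial and 11602 EO771 genes), in 1 fit per table with group as the only term, by a two-sided Wald test with Benjamini-Hochberg adjustment over all genes tested. Log2 fold changes are given ± SE, with 95% intervals of the Wald type. An exact permutation test of 3 against 3 libraries cannot give a p under 0.1. The scripts were tested on simulated data. Alternatives were edgeR 4.0.16 quasi-likelihood tests, TMM size factors, no filter, only the groups compared, adjusted p alone, a test against a log2 fold change of 1, values divided by their step, a replicate block, and each library left out in turn.

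Equal replicate numbers were checked for pairing by the correlation of deviations from group means. In EO771 these were 0.111, 0.173 and 0.328, which met the criterion for pairing, although the labels do not state it. The values printed come from the fit without a block, and the block was an alternative that changed no EO771 call. CPM per kb used merged exons of the GENCODE annotation. Reads carry no molecular identifiers, so the floor of 3 fragments covers counting error only. Guide sequences were read from the oligonucleotide list of the study and promoters from RefSeq (GRCm38.p6). Marker lists, given as summed CPM, covered pan-endothelial, high endothelial, lymphatic, myeloid, lymphoid, fibroblast and pericyte, epithelial, adipocyte, glial and platelet genes.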

Additional observations from a re-analysis of the deposited data

Results flagged for a closer look

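The tumour change of 18 of the 30 tested members differed between HECs and BECs by the interaction test (adjusted p under 0.05 and over 2-fold), where values are the log2 change in HECs minus that in BECs. Over all genes 11.2% were called higher and 12.1% lower, and the lower share of members, 16.7%, was near the latter. The interaction was positive for 13 members. Among receptors these were Plxna2 (1.64), Plxna3 (2.01), Plxna4 (1.54) and Plxnd1 (1.67). Among secreted ligands they were Sema3a (4.03), Sema3f (3.86) and Sema3g (2.97). Among membrane-bound ligands they were Sema4b (1.05), Sema4c (2.48), Sema4g (1.13), Sema5a (3.385), Sema6a (1.27) and Sema6d (2.89). It was negative for Nrp2 (-1.24), Plxnb2 (-1.75), Plxnc1 (-3.02), Sema4d (-3.23) and Sema6c (-1.27). BEC tumour also stood apart in macrophage markers, and the part of those cells in these differences was not tested. It differed from BEC normal in tissue and digestion too, which the interaction cannot tell apart from tumour.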

How the results depend on the processing

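Of 78 member calls over the 6 comparisons, 64 held under every alternative but a test of fold changes against 2-fold, 37 held under that one too, and 0 reversed. Counts by adjusted p alone, with no fold limit, were 5 higher for HEC normal against BEC normal, 9 higher for HEC tumour against BEC tumour, 6 higher and 7 lower for HEC tumour against HEC normal, 6 higher for BEC tumour against BEC normal, and 5 lower for EO771. Tested against 2-fold instead, they were 0 higher for HEC normal against BEC normal, 2 higher and 5 lower for HEC tumour against BEC tumour, 0 and 0 for HEC tumour against HEC normal, 8 lower for BEC tumour against BEC normal, 7 higher and 2 lower for the interaction, and 0 and 0 for EO771, in DESeq2. For HEC tumour against HEC normal, 1 member was higher with edgeR, with only the groups compared and with values divided by their step. With single libraries left out, counts ranged from 7 to 11 lower for HEC tumour against BEC tumour, from 1 to 2 higher for HEC tumour against HEC normal, and from 1 to 2 higher for EO771. The share of all genes called was not counted under these alternatives, so these member counts stand without a background. The cause of these shifts was not tested. Between endothelial libraries of equal number, correlations ran from -0.028 to 0.126 (median 0.033). Between those of unequal number they ran from -0.170 to 0.116 (median -0.020), and 44 of 72 were best with their own number. The labels do not say whether these numbers mark pairs. A replicate block changed the count of members lower in HEC tumour against BEC tumour from 11 to 10, through Sema3d (adjusted p = 0.0529 in DESeq2), and no other count of calls, in EO771 either. Members with group means near or under 3 fragments per library, among them Sema3d, Sema3e and Plxnb1 in HECs, have fold changes of little precision at this depth.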

Other observations

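The remaining marker lists are given as summed CPM, from the lowest to the highest library of a group. Lymphatic markers were 341 to 362 in BEC normal, 201 to 223 in BEC tumour and 282 to 338 in HEC normal libraries, and 349.8 to 360.3 in HEC tumour. Lyve1 and Flt4 made up most of these sums. Prox1, Reln and Mmrn1 were low throughout, reaching at most 0.617, 0.869 and 1.11 CPM, each in BEC tumour. High endothelial markers were 26.0 to 28.9 in BEC normal and 10.5 to 13.7 in BEC tumour, against 975 to 1331 in HEC normal and 2225 to 3057 in HEC tumour. Glycam1, Chst4 and Fut7 made up nearly all of the HEC sums. Chst2 of the same list went the other way, at 18.8 to 22.9 CPM in BEC normal and 0 in HEC normal and HEC tumour. Lymphoid markers were 25.1 to 43.4 in BEC tumour and 0.238 to 0.460 in HEC normal. Most of the BEC tumour sum was the single gene Cd4, at 21.0 to 40.1 CPM. The T cell genes Cd3e, Cd3d and Cd8a reached at most 0.194, 0.166 and 0.387 CPM there, and Cd79a 1.29 CPM. In BEC tumour, adipocyte markers were 0.655 to 0.789, glial markers 9.51 to 12.9 and platelet markers 27.2 to 32.1, and in BEC normal they were 0 to 0.129, 58.4 to 79.9 and 22.4 to 28.7.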
